A study of Mus musculus with 12 samples.

Results

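The transcripts of 34 genes of astrocytes were followed in RNA-sequencing data of cells that carry CD11b, a protein on the surface of microglia and related myeloid cells. They had been pulled from papain-digested cortex of male mice with magnetic beads, so that astrocyte transcripts are those of another cell type than the one isolated. All 34 genes of a given list were found among the 55487 genes of the count table, and all of them were among the 15425 genes that passed the filter on low counts. Of the list, 31 genes are general genes of astrocytes and 3 (Gfap, Clu and Aspg) were set apart as genes of reactive astrocytes. Each of 4 groups held 3 mice. The WT mice were of the C57BL/6J strain, and the App NL-G-F mice (called App mice), on the same background, carry the Swedish, Arctic and Iberian mutations of familial AD in the App gene itself, with no added transgene. Mice of both strains received either PBS (veh) or 10 mg/kg of rh Bri2 BRICHOS R221E (called BRICHOS), a recombinant human chaperone domain of the Bri2 protein with an exchanged amino acid. Intravenous treatment began at an age of 9 months, with 24 injections in 12 weeks, and was followed by 4 weeks without treatment.

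Astrocytes take up glutamate and potassium, couple to each other through gap junctions and cover blood vessels with endfeet that are rich in the water channel aquaporin-4. Near amyloid plaques they become reactive, with more of the intermediate filament protein GFAP and of secreted proteins such as clusterin. In bulk samples such as these, a change in the number of astrocytes and a change in the RNA of each of them cannot be told apart.

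Between 12433402 and 17889654 reads were counted on genes per library, and 3 counts corresponded to 0.169 to 0.227 CPM (the counts of a gene relative to all counts of the library, normalised with TMM factors), a limit that covers counting error only. Itgam, the gene of CD11b, was between 408.9 and 526.9 CPM in all 12 libraries, and the summed level of 12 microglial markers was between 35022 and 44367 CPM. Each of the 34 astrocyte genes had at least 1 count in every library, and the smallest count was 2. An exon of 5 of them (Aldh1l1, Fgfr3, Ttyh1, Id4 and Emx2) overlaps an exon of another gene in the annotation, and the strand setting of the counting is not given in the sources used here, so their counts may include reads of the neighbour.

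The 34 genes together took from 0.0933% to 0.608% of all counts of a library. Their summed level in veh-treated WT mice was 1086, 1005 and 900.8 CPM in mice 1, 2 and 3. It was 900.0, 1571 and 1809 CPM in BRICHOS-treated WT mice. In veh-treated App mice it was 6386, 5728 and 2182 CPM, and in BRICHOS-treated App mice 2788, 1068 and 1933 CPM. Mice 1 and 2 of the veh-treated App group stood above all other mice, whereas mouse 3 of that group was below mouse 1 of the treated App group. In 31 of the 34 genes, veh-treated App mice 1 and 2 were above every other library. Treated App mouse 2 was the lowest of the 6 App mice in all 34 genes, and in 31 of them it lay within or below the range of the 6 WT mice. The level of treated App mouse 1 exceeded that of veh-treated App mouse 3 in 30 genes. Among the WT mice, BRICHOS-treated mouse 3 was highest in 26 genes and veh-treated mouse 3 lowest in 18. Veh-treated App mouse 1 exceeded treated App mouse 2 by a median of 6.75-fold over the 31 general genes, from 1.71-fold for S1pr1 to 15.2-fold for Emx2. The value for Emx2 rests on 75 against 5 counts.

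**Figure D1:**
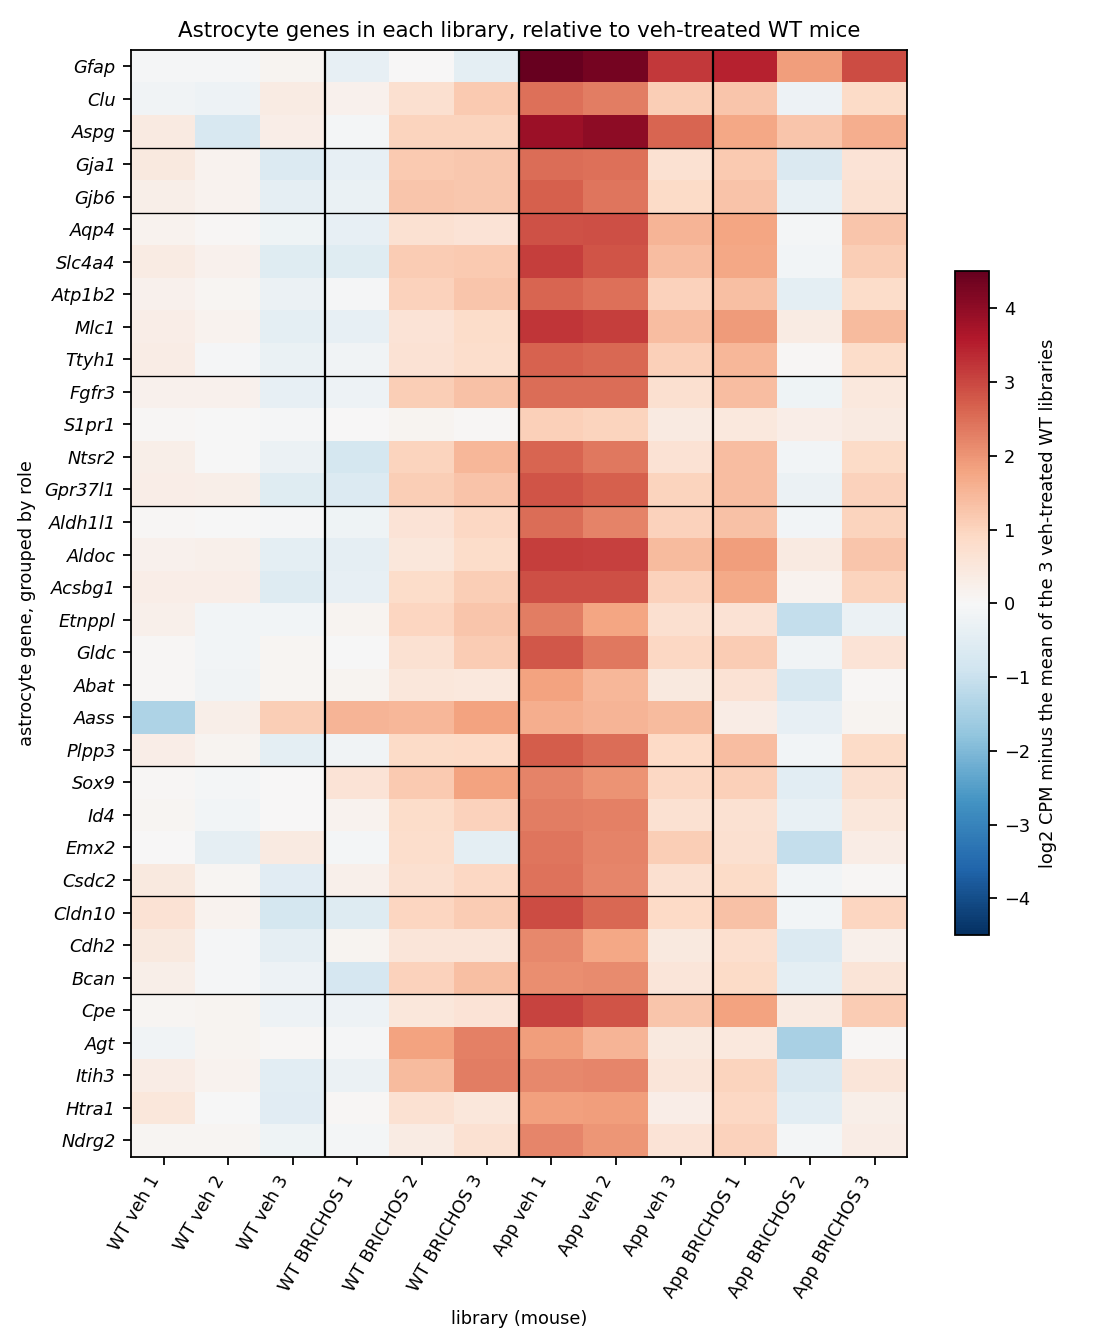
Level of each of the 34 astrocyte genes (rows, grouped by role) in each of the 12 libraries (columns), as the log2 CPM minus the mean log2 CPM of the 3 veh-treated WT libraries. The darkest red is in veh-treated App mice 1 and 2. In treated App mouse 2, 31 of the 34 genes lie within or below the range of the 6 WT mice. Gfap, Aspg and S1pr1 lie above that range, and Agt, Etnppl and Emx2 are among the genes below it.

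To see how the strain affects astrocyte transcripts, veh-treated App mice were compared with veh-treated WT mice. Of the 34 genes, 33 were upregulated in App mice at an adjusted p-value under 0.05 (edgeR's quasi-likelihood test), where 20.1% of all tested genes were upregulated. The exception was Agt (angiotensinogen), with an adjusted p-value of 0.0723. The median log2 fold change was 2.10 for the 34 genes and -0.02 for all tested genes. In 32 genes the 3 App mice were all above the 3 WT mice, as in 25.5% of all tested genes, and the groups overlapped for Htra1 (a secreted protease) and Cdh2 (N-cadherin). Without veh-treated App mouse 1, 25 of the genes passed the test.

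The largest change was that of Gfap, the intermediate filament of astrocytes (chromosome 11, positions 102887336 to 102900912 of GRCm38). Its level was 34.5, 34 and 38.7 CPM in veh-treated WT mice and 846.7, 712.5 and 324.2 CPM in veh-treated App mice. No App mouse came near the WT mice. The log2 fold change was 4.14 (SE 0.425, adjusted p = 1.74e-05), or 17.6-fold. Aspg, which encodes an asparaginase (chromosome 12, positions 112106679 to 112127559), was at 0.411, 0.119 and 0.373 CPM in WT and at 5.76, 6.5 and 2.37 CPM in App mice. The WT mice were thus close to the limit of detection. Its log2 fold change was 4.03 (SE 0.519, adjusted p = 0.000102). Clu, which encodes the secreted chaperone clusterin (chromosome 14, positions 65968483 to 65981547), was at 129.3, 124.4 and 190.3 CPM in WT and at 814.2, 719.5 and 314.0 CPM in App mice. With a log2 fold change of 2.06 (SE 0.421, adjusted p = 0.00265), Clu lay near the median of the list, unlike Gfap and Aspg.

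The promoter sequences of genes that differ in this way are shown because Gfap and Aspg had larger log2 fold changes than Gja1 and Aldoc, 2 general genes. They are the 300 bases from 250 before to 50 after the transcription start, taken from RefSeq (GRCm38.p6), and written 5′ to 3′ on the strand of the gene. Capitals mark matches to a STAT site (TTCNNNGAA) or an AP-1 site (TGANTCA), which were searched on both strands and which do not overlap in these sequences. Positions are counted from the transcription start. The Gfap window is chr11:102897151-102897450 on the minus strand, with a STAT match that begins at -2. The Aspg window is chr12:112106433-112106732 on the plus strand and holds neither motif. For Gja1 it is chr10:56377050-56377349 on the plus strand, with an AP-1 match that begins at -19. Aldoc has a start with neither motif and another, printed here, at chr11:78323948-78324247 on the plus strand, with STAT matches that begin at -124 and -83.
Gfap: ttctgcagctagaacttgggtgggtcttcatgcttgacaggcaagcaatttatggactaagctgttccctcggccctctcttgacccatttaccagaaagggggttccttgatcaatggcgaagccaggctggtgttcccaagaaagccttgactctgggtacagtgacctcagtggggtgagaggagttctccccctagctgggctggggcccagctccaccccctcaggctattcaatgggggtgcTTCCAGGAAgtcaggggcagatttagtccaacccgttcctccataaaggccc
Aspg: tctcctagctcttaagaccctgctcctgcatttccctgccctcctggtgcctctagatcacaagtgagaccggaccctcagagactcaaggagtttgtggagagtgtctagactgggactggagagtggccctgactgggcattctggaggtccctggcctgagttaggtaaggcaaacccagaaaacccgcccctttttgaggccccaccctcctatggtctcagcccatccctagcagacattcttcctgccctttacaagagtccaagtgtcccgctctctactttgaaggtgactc
Gja1: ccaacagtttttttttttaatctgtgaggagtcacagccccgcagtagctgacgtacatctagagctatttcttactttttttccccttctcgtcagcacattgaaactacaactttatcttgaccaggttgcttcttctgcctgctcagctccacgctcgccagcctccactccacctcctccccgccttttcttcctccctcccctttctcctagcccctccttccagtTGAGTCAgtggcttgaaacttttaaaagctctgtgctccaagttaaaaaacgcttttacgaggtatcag
Aldoc: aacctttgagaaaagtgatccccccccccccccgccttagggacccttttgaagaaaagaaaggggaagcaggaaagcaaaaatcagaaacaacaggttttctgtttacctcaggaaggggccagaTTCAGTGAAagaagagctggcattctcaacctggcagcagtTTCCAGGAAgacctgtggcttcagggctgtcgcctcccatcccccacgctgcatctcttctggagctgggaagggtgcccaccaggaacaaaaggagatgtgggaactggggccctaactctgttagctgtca

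A STAT match was found in 8.3% of 32851 mouse promoters of this length and an AP-1 match in 7.81%. Promoter sequences were at hand for 25 of the 34 genes, with 32 starts in all. Of these, 5 starts of 5 genes (Gfap, Aldoc, Ntsr2, Agt and Acsbg1) held a STAT match and 1 (Gja1) an AP-1 match. A STAT match was thus found in Gfap and also in general genes with smaller log2 fold changes, and the matches are a description of these letters only.

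Among the general genes, both connexins of astrocyte gap junctions rose in veh-treated App mice. Gja1 (connexin 43) was at 40.7, 32.9 and 19.4 CPM in WT and at 169.8, 166.2 and 47.3 CPM in App mice. Gjb6 (connexin 30) was at 5.96, 5.46 and 3.65 CPM in WT and at 32.5, 26.8 and 8.97 CPM in App mice. The groups did not overlap, but mouse 3 was much closer to the WT mice than mice 1 and 2. The log2 fold changes were 2.04 (SE 0.578, adjusted p = 0.0163) for Gja1 and 2.18 (SE 0.546, adjusted p = 0.00868) for Gjb6.

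All 5 genes of channels, transporters and pumps rose, by a median of 2.54 on the log2 scale. Aqp4, which encodes the water channel of astrocyte endfeet, was at 21.6, 20.1 and 16.8 CPM in veh-treated WT and at 140.8, 144.5 and 55.5 CPM in veh-treated App mice. Ttyh1, of the tweety family of chloride channels, was at 46.7, 36.1 and 30.6 CPM in WT and at 236.3, 224.3 and 77.7 CPM in App mice. In both genes mouse 3 of the App group was again the lowest of its group. Mlc1, a membrane protein of endfeet, had the largest log2 fold change of the general genes with 2.76 (SE 0.516, adjusted p = 0.00151). Slc4a4, the sodium bicarbonate cotransporter, and Atp1b2, a subunit of the sodium-potassium pump, changed by 2.56 and 2.18.

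All 4 receptor genes rose as well. Fgfr3, a receptor for fibroblast growth factors, was at 15.3, 15.5 and 10.3 CPM in WT and at 76.5, 77.6 and 22.5 CPM in App mice. S1pr1, a receptor for sphingosine-1-phosphate that endothelial cells also express, was at 117.9, 110.0 and 108.7 CPM in WT and at 236.0, 225.3 and 150.5 CPM in App mice. S1pr1 had the smallest log2 fold change of the list, 0.86 (SE 0.131, adjusted p = 0.00036), and also a small spread between mice. For Ntsr2 (a neurotensin receptor) and Gpr37l1 (an orphan receptor) the values were 2.10 and 2.33.

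The 8 enzymes rose by a median of 2.14, from 1.30 for Aass (lysine degradation) to 2.69 for Aldoc (aldolase C). Etnppl, which degrades phosphoethanolamine, was at 3.36, 2.61 and 2.61 CPM in WT and at 14.4, 9.91 and 4.74 CPM in App mice. Gldc, of the glycine cleavage system, was at 5.61, 4.98 and 5.74 CPM in WT and at 38.5, 28.4 and 10.4 CPM in App mice. In both enzymes mouse 3 was the lowest App mouse, but it was above all WT mice. The remaining enzymes lay between these limits, with log2 fold changes of 2.06 for Aldh1l1 (folate metabolism), 2.46 for Acsbg1 (acyl-CoA synthesis), 2.21 for Plpp3 (a lipid phosphatase) and 1.34 for Abat (GABA degradation). Of the 4 genes for transcription and RNA binding, Id4, an inhibitor of bHLH transcription factors, was at 10.6, 9.01 and 10.1 CPM in WT and at 49.0, 48.8 and 16.0 CPM in App mice. Csdc2, an RNA-binding protein, was at 4.86, 3.85 and 2.46 CPM in WT and at 19.9, 16.9 and 6.08 CPM in App mice. For these genes, too, the groups did not overlap and mouse 3 was the lowest App mouse. Sox9, the astrocyte transcription factor, and Emx2, a homeobox factor, changed by 1.85 and 2.15.

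All 3 genes of adhesion and matrix rose, too. Cldn10, a claudin, was at 5.48, 3.85 and 1.94 CPM in WT and at 27.5, 21.1 and 6.59 CPM in App mice. Cdh2 was at 7.94, 5.57 and 4.32 CPM in WT and at 26, 19.3 and 7.78 CPM in App mice, so that mouse 3 of the latter was below mouse 1 of the former. In both genes mouse 1 was the highest App mouse. Bcan, the matrix proteoglycan brevican, changed by 1.73. In the group of secreted and signalling proteins 4 of 5 genes passed the adjusted threshold. Cpe (carboxypeptidase E) was at 118.6, 119.7 and 95.6 CPM in WT and at 917.3, 780.8 and 264.6 CPM in App mice. Ndrg2 was at 86.1, 84.4 and 70.8 CPM in WT and at 367.1, 316.8 and 123.5 CPM in App mice. For both genes the groups did not overlap. Cpe also had the highest level per transcript length of the list, with a mean of 111.6 CPM per kilobase over the 12 libraries, followed by Clu with 91.0 and Aldoc with 65.7. Itih3 (a heavy chain of inter-alpha-trypsin inhibitors), Htra1 and Agt had log2 fold changes of 1.79, 1.45 and 1.44.

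The effect of BRICHOS in App mice was examined next. All 34 genes were lower in treated than in veh-treated App mice at an unadjusted p-value under 0.05, where 7.67% of all tested genes were lower. The study also asked for a log2 fold change beyond 1, which left out only S1pr1, so that 33 genes passed both cutoffs, as did 3.35% of all tested genes. None passed an adjusted p-value under 0.05 in edgeR, as 0.00648% of all genes did, and 6 did so in DESeq2's Wald test, where 0.863% of the genes with an adjusted p-value were lower. The adjusted p-values lay between 0.212 and 0.447, and the median log2 fold change was -1.42, against 0.01 for all tested genes. Only 4 genes (Etnppl, Emx2, Aass and Aspg) had no overlap between the 3 treated and the 3 veh-treated mice, as in 7.09% of all genes. By level per transcript length these were the lowest 4 of the list (ranks 31 to 34), with 5 to 69 counts in treated App mice. These 4 genes and Clu, Gldc, Id4, Cdh2, Abat and Csdc2 are on a list that the study drew from these same libraries for a low p-value of the treatment in App mice and a higher level in App than WT mice. Their decrease is thus part of how that list was chosen, and the count is not independent evidence of it. The count at the unadjusted threshold depended on single mice. It fell to 19 of the 34 genes without veh-treated mouse 1 and to 22 without treated mouse 2. Without veh-treated mouse 3, 10 genes passed the adjusted threshold.

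Gfap was at 393.9, 130.1 and 272.8 CPM in treated App mice, compared with 846.7, 712.5 and 324.2 CPM in veh-treated ones. Treated mouse 1 was above veh-treated mouse 3, so that the groups overlapped. The log2 fold change was -1.24 (SE 0.375, adjusted p = 0.294). Clu, at 346.0, 123.7 and 261.0 CPM after treatment, changed by -1.34 (SE 0.411, adjusted p = 0.294) and likewise overlapped with the veh-treated mice. Aspg was at 1.23, 0.832 and 1.13 CPM after treatment, below all veh-treated mice. It had the largest decrease of the list, -2.20 on the log2 scale (SE 0.436, adjusted p = 0.212). This decrease rests on 13 to 19 counts in treated and 32 to 99 counts in veh-treated App mice.

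The decrease of the general genes was alike across their roles, with medians from -1.33 for secreted and signalling proteins to -1.62 for transcription and RNA-binding proteins. In treated App mice, Gja1 was at 67.4, 18.9 and 45.3 CPM and Gjb6 at 12.3, 3.84 and 8.01 CPM. Aqp4 was at 66.2, 18.3 and 46.5 CPM and Ttyh1 at 104.5, 38.5 and 66.5 CPM. Fgfr3 was at 35.7, 11.6 and 19.0 CPM and S1pr1 at 154.5, 138.3 and 150.0 CPM. In each of these 6 genes mouse 2 was the lowest and mouse 1 the highest of the treated mice, and mouse 1 was above veh-treated mouse 3. For Etnppl the values were 4.45, 1.28 and 2.34 CPM, all below the veh-treated mice, and its log2 fold change was -1.85 (SE 0.473, adjusted p = 0.291). Gldc was at 12.1, 4.86 and 8.31 CPM, Id4 at 16.0, 7.93 and 14.0 CPM and Csdc2 at 6.71, 3.26 and 3.7 CPM. Cldn10 was at 8.84, 3.13 and 6.95 CPM, Cdh2 at 9.94, 3.71 and 6.8 CPM, Cpe at 388.1, 147.8 and 242.3 CPM and Ndrg2 at 166.7, 74.9 and 100.5 CPM. Mouse 2 was again the lowest in each of these genes. The smallest decrease was that of S1pr1, -0.47 (SE 0.13, adjusted p = 0.294), and Itih3 had the highest p-value of the list (adjusted p = 0.447).

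**Figure D2:**
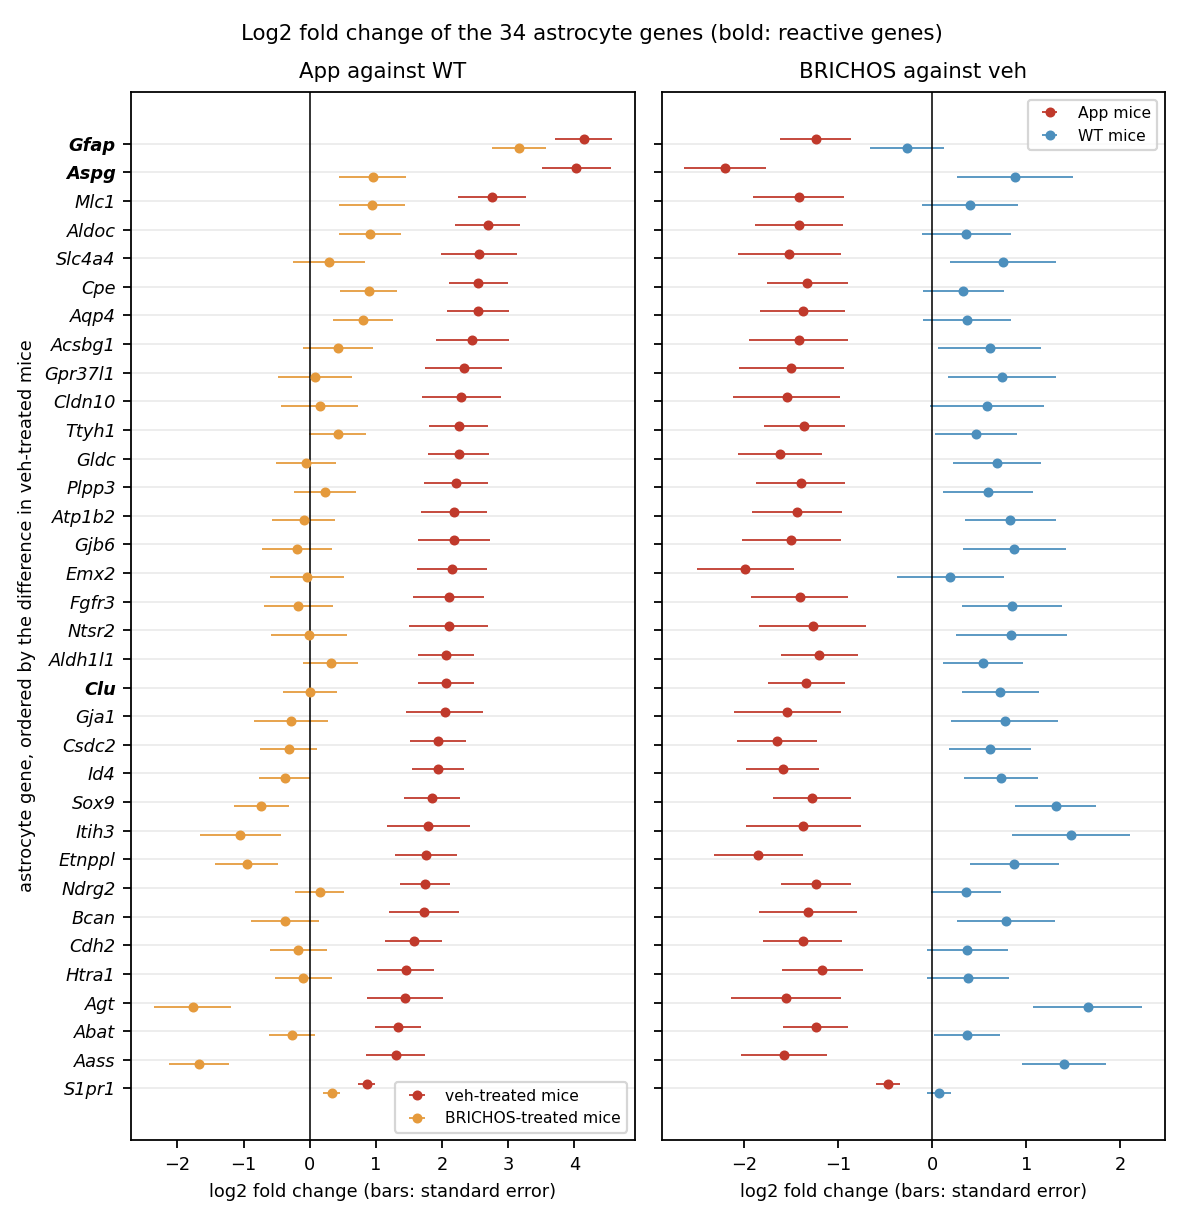
Log2 fold change of each of the 34 genes between App and WT mice (left) and between BRICHOS- and veh-treated mice (right), with standard errors as bars and the reactive genes in bold. Between strains the veh-treated mice are all above 0, from 0.86 to 4.14, and the treated mice range from -1.77 for Agt to 3.16 for Gfap with a median of -0.02; the treatment is below 0 for every gene in App mice.

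Between BRICHOS-treated App and BRICHOS-treated WT mice, few of the genes passed the test. Gfap was the only gene upregulated in App mice at an adjusted p-value under 0.05, where 20.8% of all tested genes were upregulated. Agt and Aass were downregulated, where 21.8% of all tested genes were. The median log2 fold change of the list was -0.02, and it was -0.04 for all tested genes. Gfap was at 27.3, 35.5 and 26 CPM in treated WT mice, so that even treated App mouse 2, with 130.1 CPM, was far above them. Its log2 fold change was 3.16 (SE 0.41, adjusted p = 9.42e-05). The level of Aass was lower in all treated App than in all treated WT mice, as that of 26.4% of all tested genes. The groups also did not overlap for S1pr1 and Aspg, both higher in App mice as in 25.3% of all tested genes, with log2 fold changes of 0.33 (adjusted p = 0.0621) and 0.95 (adjusted p = 0.154). Clu, with 164.4, 240.2 and 327.1 CPM in treated WT mice, had a mean of 243.9 CPM there and of 243.6 CPM in treated App mice (log2 fold change -0.00, SE 0.405). Agt was at 4.35, 15.8 and 22.0 CPM in treated WT and at 6.26, 1.54 and 4.61 CPM in treated App mice (log2 fold change -1.77, SE 0.583, adjusted p = 0.029), where WT mouse 1 was within the range of the App mice. Without veh-treated App mouse 3, which enters this comparison only through the shared estimate of the spread, 5 instead of 3 genes passed.

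In WT mice, few of the astrocyte genes passed the test for the treatment. At the unadjusted threshold of 0.05, Sox9, Agt, Itih3 and Aass were higher after treatment, as were 6.55% of all tested genes. At the adjusted threshold 0 of the 34 genes and 0% of all tested genes passed in edgeR, and 0 of the 34 in DESeq2's Wald test, where 0.545% of the genes with an adjusted p-value passed. The median log2 fold change was 0.65, against -0.00 for all tested genes. Sox9 was at 5.34, 4.8 and 5.14 CPM in veh-treated and at 7.94, 11.6 and 18.3 CPM in treated WT mice (log2 fold change 1.31, SE 0.429, adjusted p = 0.297). Itih3 was at 6.5, 5.75 and 3.65 CPM in veh-treated and at 4.28, 13.9 and 26.1 CPM in treated WT mice, where treated mouse 1 lay within the range of the veh-treated mice. The groups did not overlap for Sox9, Id4, Abat and Aass, as in 8.36% of all tested genes. Without treated WT mouse 3 only 1 gene passed the unadjusted threshold, and without treated WT mouse 1 11 genes did. Gfap had the only negative log2 fold change of the list, -0.27 (SE 0.398, adjusted p = 0.851), where those of the general genes ranged from 0.07 to 1.65. As none of these changes passed the adjusted threshold, they do not show that Gfap behaved differently.

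The treatment effects in App and WT mice were compared directly in the same fit. In 33 of the 34 genes the effect in App mice was lower than that in WT mice at the unadjusted threshold, where 9.54% of all tested genes were. None passed an adjusted p-value under 0.05 in edgeR, where 0.00648% of all tested genes were lower, and 8 did so in DESeq2's Wald test, where 1.32% of the genes with an adjusted p-value were lower. The median difference was -2.12 on the log2 scale. The lowest adjusted p-value, 0.153, was that of Aass, with a difference of -2.97 (SE 0.639). Only Aass had no overlap between treated and veh-treated mice in either strain with opposite directions, 1 of the 34 genes, as had 1.93% of all tested genes. The largest difference was that of Agt, with -3.21 (SE 0.822, adjusted p = 0.162). The gene that did not pass was Gfap, with -0.97 (SE 0.544, adjusted p = 0.43), while Clu and Aspg had differences of -2.06 and -3.07 with adjusted p-values of 0.178 and 0.157. Without veh-treated App mouse 3, 6 genes passed the adjusted threshold, and without veh-treated WT mouse 3, 1 did. The strain comparison in veh-treated mice and these treatment comparisons share their veh-treated mice, so a high level in veh-treated App mice 1 and 2 enters all of them.

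To set the reactive genes against the general ones within the same library, the mean log2 CPM of the 31 general genes was subtracted from the log2 CPM of Gfap. The geometric mean of the general genes was 15.3, 14.0 and 11.5 CPM in veh-treated WT, 12.3, 24.8 and 27.9 CPM in treated WT, 74.1, 65.7 and 24.8 CPM in veh-treated App and 30.2, 11.1 and 21.0 CPM in treated App mice. Relative to it, Gfap was at 1.18, 1.28 and 1.76 in veh-treated WT and at 1.15, 0.52 and -0.10 in treated WT mice. In veh-treated App mice the difference was 3.51, 3.44 and 3.71, and in treated App mice 3.70, 3.56 and 3.70. The 6 App mice thus lay within a narrow range of 3.44 to 3.71, above all 6 WT mice, although the geometric mean of the general genes differed by up to 6.7-fold between them. The group means differed by 2.15 between veh-treated App and WT mice, by 3.13 between treated App and WT mice and by 0.10 between treated and veh-treated App mice. In WT mice the mean difference decreased by 0.88 after treatment, and the groups did not overlap, as for 5.06% of all tested genes. The general genes differ between groups themselves, which shifts the relative level of every other gene, so such shares of all genes are given without a reading.

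**Figure D3:**
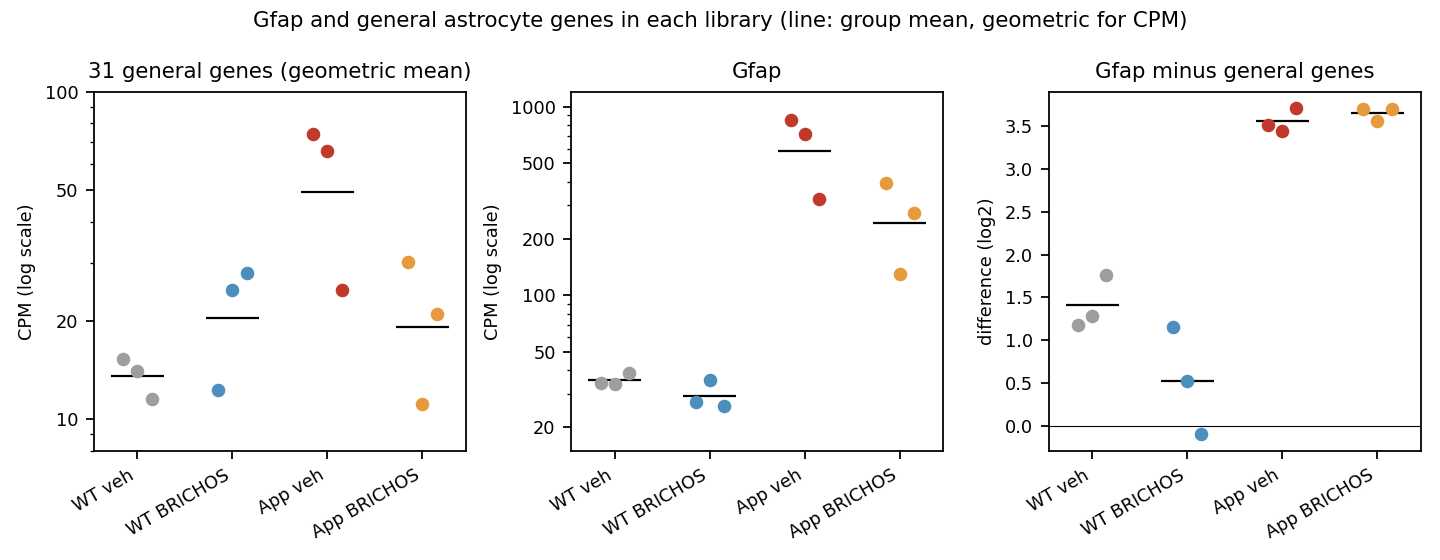
Geometric mean of the 31 general astrocyte genes (left, CPM on a log scale), Gfap (middle, CPM on a log scale) and the log2 CPM of Gfap minus the mean log2 CPM of the general genes (right) in each library, with a line for the group mean, which is geometric for CPM. Both levels vary several-fold within the App groups, while Gfap relative to the general genes lies between 3.44 and 3.71 in all 6 App mice and at or below 1.76 in all WT mice.

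The comparison was then made as a test, by adding the mean log2 CPM of the general genes as a covariate to edgeR's fit of all genes. Gfap remained higher in App than WT mice, by 2.63 (SE 0.324, adjusted p = 0.00027) in veh-treated and by 3.09 (SE 0.227, adjusted p = 2.07e-06) in treated mice. The treatment effect on Gfap in App mice was -0.24 (SE 0.273, adjusted p = 1.0) with the covariate, and the difference of the treatment effects turned from -0.97 to 0.47 (SE 0.399). In WT mice the treatment effect on Gfap was -0.70 with the covariate (SE 0.235, adjusted p = 0.447), which passed the unadjusted threshold of 0.05 but not the adjusted one. Clu had a strain difference of 0.37 (SE 0.329, adjusted p = 0.505) in veh-treated mice in that fit. Relative to the general genes it lay between 3.45 and 3.66 in App mice, within the wider range of 3.08 to 4.05 in WT mice. In veh-treated WT mice it did not follow the general genes. Mouse 3 was lowest of that group in their geometric mean but highest in Clu, with a relative level of 4.05 against 3.08 and 3.15. Aspg kept a strain difference of 2.46 (SE 0.563, adjusted p = 0.0129) in veh-treated and of 1.07 (SE 0.364, adjusted p = 0.0344) in treated mice, and a treatment effect in App mice of -1.05 (SE 0.431, adjusted p = 1.0), which likewise passed only the unadjusted threshold. The covariate itself differs between the groups, so the strain and the level of the general genes are only in part separated in this fit. Its mean was also lower in treated than in veh-treated App mice. The fit therefore takes out any treatment effect that a gene shares with the general genes, and a small remainder does not show that there was none. Of the general genes, Etnppl, Gldc, Id4, Emx2, Cdh2, Abat, Aass and Csdc2 are on the study's list of genes that decreased in these App libraries.

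Each gene was also set against the mean of the other general genes. In 7 genes, the level relative to that mean was higher in all 6 App than in all 6 WT mice, as in 0.784% of all tested genes. These were Gfap, Aspg, Mlc1, Aldoc, Cpe, Aqp4 and Ttyh1. Mlc1 lay between 0.98 and 1.31 in App and between 0.15 and 0.57 in WT mice, and Aldoc between 3.14 and 3.38 and between 2.19 and 2.74. Aqp4 was between 0.76 and 1.21 in App and between 0.09 and 0.58 in WT mice. The mean differences of these general genes, from 0.35 for Ttyh1 to 0.88 for Mlc1, were small beside the 2.64 of Gfap and the 1.31 of Aspg. Agt was lower in all App mice, between -2.82 and -2.05 compared with -1.96 to -0.34 in WT mice, as were 5.78% of all tested genes. In the other 26 genes the strains overlapped. After treatment, 29 of the 34 relative levels in App mice overlapped with those of veh-treated App mice. Those of Aldh1l1, Ntsr2 and Htra1 were higher after treatment, as for 10.4% of all tested genes, and those of Etnppl and Emx2 were lower, as for 0.0519% of all tested genes. Etnppl and Emx2 are on the study's list of genes that decreased in these libraries. Their counts in treated App mice were low, with 20 to 69 for Etnppl and 5 to 22 for Emx2. The general genes were themselves lower in treated App mice, which raises the relative level of most other genes, and nothing is read from these shares.

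Other genes of astrocytes were drawn from lists that are not part of the 34. Of 20 further general genes, 14 were upregulated in veh-treated App compared with WT mice at an adjusted p-value under 0.05. Of all tested genes 20.1% were, and the median log2 fold change of the 20 genes was 1.58. With treatment in App mice, 15 of the 20 were lower at an unadjusted p-value under 0.05, where 7.67% of all tested genes were. The median treatment effect on the 20 genes was -1.16. Slc1a2, the main glutamate transporter of astrocytes, was at 207.0, 179.2 and 112.5 CPM in veh-treated WT and at 1887, 1642 and 476.9 CPM in veh-treated App mice. After treatment it was at 724.8, 203.6 and 427.9 CPM, in the same order of mice as the 34 genes. Log2 fold changes between the veh-treated strains were 3.01 for Slc1a2, 2.75 for Dio2 (which activates thyroid hormone) and 2.73 for Slc25a18 (a mitochondrial glutamate carrier). The lowest p-values for the treatment were those of Slc1a3 (the other astrocyte glutamate transporter, -1.17), Pla2g7 (a phospholipase, -1.11) and Lcat (an enzyme of cholesterol esterification, -1.40), each with an adjusted p-value of 0.294. Slc1a3 and Pla2g7 are on the study's list as well. With the general genes as a covariate, 0 of these 20 genes passed the unadjusted threshold for the treatment in App mice, where 2.3% of all tested genes were lower. In WT mice 5 were lower after treatment in that fit, as were 3.81% of all tested genes. Between veh-treated App and WT mice 4 of the 20 were higher and 1 was lower at the adjusted threshold, where 9.68% and 6.69% of all tested genes were. Between treated App and WT mice 9 were higher and 4 lower, compared with 3 and 3 without the covariate, where 20.9% and 22.1% of all tested genes were with it.

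Of 18 further genes of reactive glia, many of which other cells also express, 9 were upregulated and 2 downregulated in veh-treated App compared with WT mice, with a median log2 fold change of 0.65, where 20.1% of all tested genes were upregulated and 16.9% downregulated. With treatment in App mice, 7 of the 18 were lower at the unadjusted threshold, where 7.67% of all tested genes were. With the covariate 3 were lower, where 2.3% of all tested genes were. In neither fit was any of the 18 higher at that threshold. Without the covariate the median treatment effect was -0.20, from -1.46 to 0.39. Serpina3n, a secreted inhibitor of proteases, was at 3.49, 1.36 and 1.49 CPM in WT and at 85.3, 57.1 and 31 CPM in App mice. No App mouse was near the WT mice, and the log2 fold change was 4.78 (SE 0.563, adjusted p = 5.02e-05). In treated App mice it was at 32.2, 8.83 and 22.4 CPM, again lowest in mouse 2. Relative to the general genes it lay between -0.30 and 0.33 in the 6 App mice, between -3.75 and -1.94 in the 6 WT mice and the strains did not overlap. With the covariate its strain difference was 3.20 in veh-treated (adjusted p = 0.00292) and 3.14 in treated mice (adjusted p = 0.000118), and its treatment effect in App mice was -0.40. Igfbp5, which binds insulin-like growth factors, was at 18.3, 15.2 and 17.9 CPM in WT, at 127.0, 108.8 and 77.6 CPM in veh-treated App and at 56.1, 26.8 and 62.0 CPM in treated App mice. The treated mice were all below the veh-treated ones, with a log2 fold change of -1.11 (SE 0.262, adjusted p = 0.29), and with the covariate it was -0.48 (SE 0.214, adjusted p = 1.0). Osmr, the receptor for oncostatin M, changed by -1.19 with treatment (SE 0.286, adjusted p = 0.291) and by -0.74 with the covariate. With the covariate both passed the unadjusted but not the adjusted threshold, and both are on the study's list of genes chosen for their decrease. Timp1, an inhibitor of metalloproteases, was at 0.842, 0.788 and 0.148 CPM in veh-treated App mice and at 0.0685, 0.119 and 0.0745 CPM in WT mice (adjusted p = 0.0123). These WT values correspond to fewer than 3 counts, and no fold change is given. Lcn2, lipocalin-2, was at 26.3, 22.5 and 1.04 CPM in WT and at 2.2, 2.49 and 1.04 CPM in App mice (log2 fold change -3.11, SE 1.03, adjusted p = 0.0341). WT mouse 3 was thus no higher than the App mice.

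Markers of other cell types varied as well. The summed level of 12 oligodendrocyte markers ran from 3461 CPM in veh-treated App mouse 1, the library with the most astrocyte transcripts, to 17396 CPM in veh-treated WT mouse 2. It was 5919 CPM in veh-treated App mouse 3 and between 4699 and 6621 CPM in treated App mice. Oligodendrocyte transcripts did not rise together with those of astrocytes in veh-treated App mice. Sums over 8 markers of the choroid plexus were 928.8, 878.6 and 4033 CPM in veh-treated WT, 3340, 4104 and 6896 CPM in treated WT, 1081, 654.3 and 2024 CPM in veh-treated App and 859.0, 659.2 and 998.4 CPM in treated App mice. For 10 ependymal markers they were 29.4 to 34.1 CPM in veh-treated WT, 40.2 to 78.9 CPM in treated WT and 15.4 to 24.0 CPM in all App mice. Choroid plexus and ependymal transcripts were thus highest in treated WT mouse 3, the WT library that was also highest in 26 of the 34 astrocyte genes, and their part in the higher astrocyte levels of treated WT mice was not tested. The sum over 6 markers of oligodendrocyte precursors was 17.3 to 20.7 CPM in veh-treated WT, 21.3 to 78.5 CPM in treated WT, 89.7 to 127.2 CPM in veh-treated App and 102.4 to 147.9 CPM in treated App mice. It was thus higher in all App than in all WT mice, as the astrocyte genes were in the veh-treated groups, but veh-treated App mouse 3, the lowest of its group in astrocyte transcripts, was the highest of its group here. Sums over 12 neuronal markers went the other way, with 47.9 to 57.7 CPM in veh-treated WT, 49.6 to 71.5 CPM in treated WT, 25.2 to 28.5 CPM in veh-treated App and 23.6 to 26.7 CPM in treated App mice. For 8 mural markers they were 220.1 to 247.1, 258.3 to 343.2, 132.7 to 200.1 and 82.7 to 132.5 CPM in the same order of groups. The part of these cell types in the strain differences of the astrocyte genes was not tested. The range over the 12 libraries was 678.5 to 1149 CPM for 10 endothelial markers. No marker was at 0 in all libraries, and only Nefm, Gad2 (neurons) and Tekt4 (ependymal cells) were at 0 in some.

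**Figure D4:**
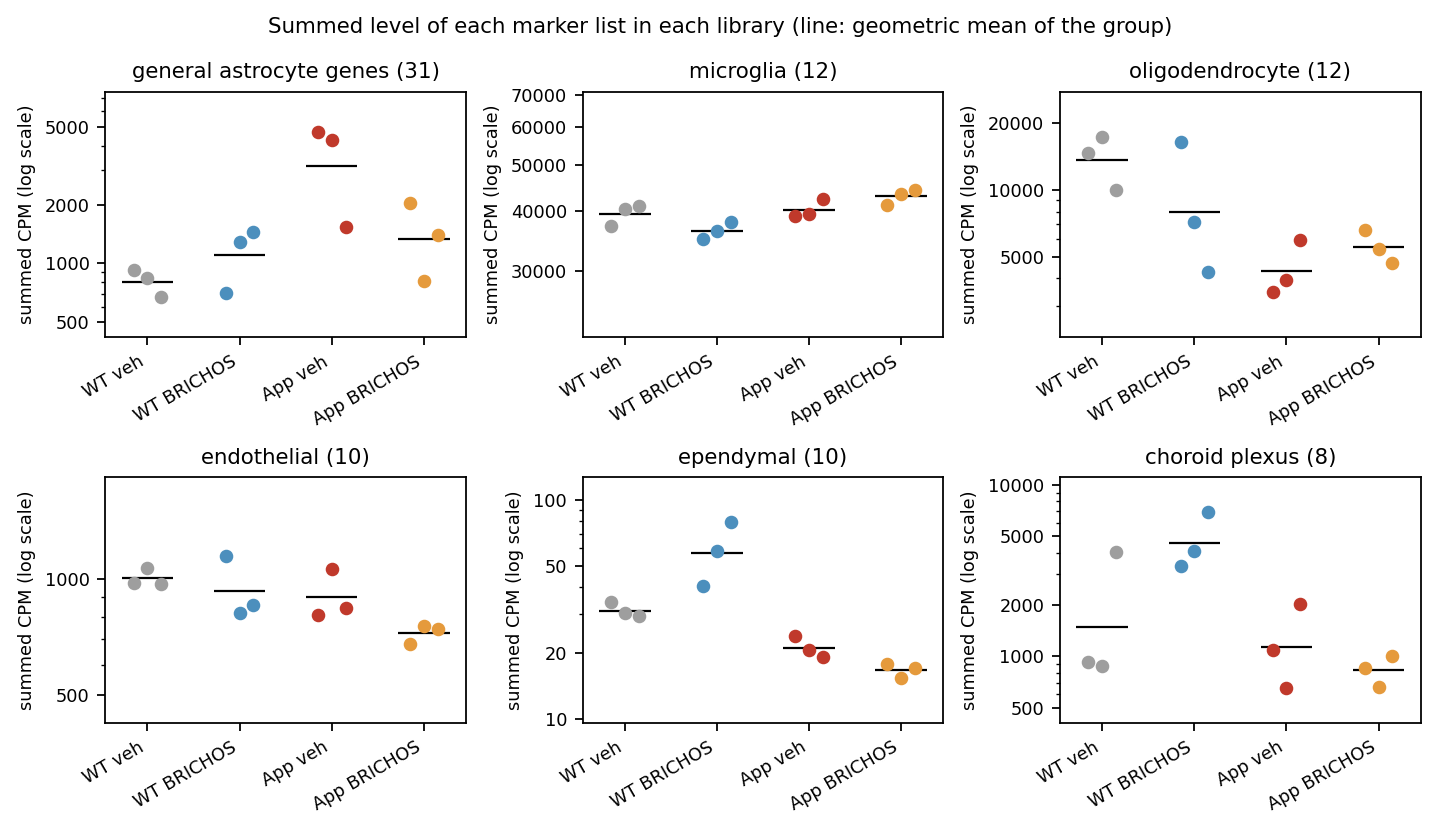
Summed level of the 31 general astrocyte genes and of marker lists of 5 other cell types in each library (CPM on a log scale; line for the geometric mean of the group). Microglial markers stay between 35022 and 44367 CPM, while the sums for astrocytes, oligodendrocytes and the choroid plexus differ several-fold within some groups. In other groups the spread is smaller, as for astrocytes in veh-treated WT mice (671.4 to 922.3 CPM).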

How the data were processed

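Bulk RNA-sequencing libraries of CD11b-positive cortical cells from 12 mice (4 groups of 3) were analysed. Per the labels, libraries were made with a stranded mRNA protocol. The authors trimmed reads with Cutadapt, aligned them to GRCm38 with STAR, counted them with featureCounts (v1.5.1 per the submitters' processing notes) and deposited the raw counts of each gene, not normalized. The count table pairs no symbols with its Ensembl identifiers, and 55227 of 55487 were given a symbol from the GENCODE annotation of GRCm38.

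Counts were tested with edgeR 4.0.16 in R 4.3.3 (filterByExpr with a minimum count of 10, TMM factors, a mean for each group, all 12 libraries in the quasi-likelihood fit), and p-values were adjusted by Benjamini-Hochberg over 15425 genes. SE values were derived from the F statistic. Log2 CPM used a prior count of 2. Strain comparisons were called at an adjusted p-value under 0.05, and treatment comparisons at an unadjusted one, as in the study (whose further cutoff, a log2 fold change of 1, was an alternative here), with the adjusted one beside it. Libraries of a group come from different mice. The test was checked on simulated counts. Figures were drawn with Python 3.11.15 and matplotlib 3.10.9.

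The 34 genes and all lists were chosen with earlier results of these data known, and the study itself names Gfap from these samples and lists Aass, Abat, Aspg, Cdh2, Clu, Csdc2, Emx2, Etnppl, Gldc and Id4 of the 34, and Igfbp5, Osmr, Pla2g7 and Slc1a3 of the further genes, as higher in App mice and lowered by treatment in these libraries, so their directions are not independent evidence. Per-library values are given for the reactive genes and, in each role, for the 2 genes with the lowest p-value for the treatment in App mice. Genes of the 2 further astrocyte lists are named where they were among the 3 called genes with the largest strain change or the 3 lowest treatment p-values. Agt, Sox9, Itih3, Aass and others singled out by their calls were chosen after their values were seen. The share of counts over members, differences from the general genes and list sums have no p-value. An exact permutation test of 3 against 3 mice cannot give a p-value under 0.1.

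The alternatives were DESeq2 1.42.0 (size factors and Wald test), no filter, at least 10 counts in every library, a log2 fold change cutoff of 1, only the compared groups in the fit, the replicate number as a block, the general genes as a covariate, 15 core genes, a median and a prior count of 0.5 for the difference from Gfap, and each library left out. Columns of other measurements were not used here.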

Additional observations from a re-analysis of the deposited data

Results flagged for a closer look

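In 1 of the 34 astrocyte genes, treated and veh-treated mice did not overlap in either strain, with opposite directions. This was so in 1.93% of all tested genes, a share near that of the list, so the count says nothing particular about astrocyte genes. Aass, which encodes an enzyme of lysine degradation (chromosome 6, positions 23072173 to 23132986 of GRCm38), was at 0.342, 1.36 and 2.53 CPM in veh-treated WT and at 3.46, 3.38 and 4.24 CPM in treated WT mice. In App mice it was at 3.69, 3.48 and 3.19 CPM with veh and at 1.42, 0.832 and 1.21 CPM with BRICHOS. The groups did not overlap in either strain, with higher levels after treatment in WT and lower levels in App mice. Counts were low, with 5 to 34 in veh-treated WT and 13 to 22 in treated App mice. Aass is on the study's list of genes that decreased in these App libraries, so its decrease there is not independent evidence. The treatment effects were 1.40 (SE 0.445, adjusted p = 0.286) and -1.58 (SE 0.459, adjusted p = 0.294) on the log2 scale. The difference of the treatment effects was -2.97 (SE 0.639, adjusted p = 0.153 in edgeR's quasi-likelihood test over all genes), and it does not pass the adjusted threshold.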

How the results depend on the processing

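Of 466 values recomputed under alternatives, 424 were taken as unchanged. For a tested value this means the same direction and side of the threshold, and for a count a value within 1.5 times of it. The differences of Gfap from the general genes have no threshold. Of these, 1 value with the 15 core genes and 1 with the median, both given below, were taken as moved. The number of the 34 genes called between veh-treated App and WT mice stayed within 1.5 times under all 19 alternatives. These do not include the covariate made from those genes. With that covariate, the strain difference of Clu in veh-treated mice was 0.37 and no longer passed. Counts for the treatment moved with single mice and with the test or filter. With each library left out in turn, the number of the 34 genes called between veh-treated App and WT mice was 25 to 34, and between treated App and WT mice 2 to 5. For the treatment in App mice it was 19 to 34 at the unadjusted and 0 to 10 at the adjusted threshold, in WT mice 1 to 11 and 0 to 0, and for the difference of the treatment effects 28 to 34 and 0 to 6. At the adjusted threshold, DESeq2's Wald test called 6 genes for the treatment in App mice and 8 for the difference of the treatment effects, and without a filter on low counts 1 and 6 were called, where edgeR with the filter called 0 in both. In WT mice, 4 genes passed the unadjusted threshold with all groups and the filter, 8 without the filter and 10 when the fit held only the 2 groups compared. Gfap relative to the general genes differed by 1.90 between veh-treated App and WT mice with 15 core genes in place of 31 (2.15), and by -0.12 between treated and veh-treated App mice with the median of the general genes in place of the mean (0.10). With each library left out, these differences of Gfap were 2.03 to 2.32 and 0.04 to 0.18, and they were 2.81 to 3.44 between the treated strains and -1.19 to -0.57 for the treatment in WT mice. With the general genes as a covariate, the difference of the treatment effects on Gfap was reversed to 0.47. The strain difference of Clu in treated mice, -0.00, turned to 0.01 with DESeq2's size factors, 0.02 with DESeq2's Wald test, 0.01 without a filter, 0.01 with the covariate, 0.00 with only the compared groups, and -0.34 to 0.32 with each library left out. The cause of these changes was not tested. Aspg has fewer than 10 counts in some libraries and gives no value with the stricter filter.

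Equal replicate numbers were compared, although each number stands for different mice. Across genes, libraries that carry the same number deviated from the means of their groups with correlations between -0.0148 and 0.227, in no comparison above 0.1 for every pair, so the numbers are not treated as pairs. Under a replicate block, 32 of the 34 genes were called between veh-treated App and WT mice, 3 between the treated strains, 32 for the treatment in App and 3 in WT mice, and 33 for the difference of the treatment effects. With the block, 0 genes passed the adjusted threshold for either treatment comparison or for their difference. Over all genes, the block moved the number called at the adjusted threshold from 5710 to 5991 between veh-treated App and WT mice.

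Depth limits the reading of Aspg, Emx2, Aass and Timp1. Aspg and Emx2 had mean levels under 1 CPM in both groups of WT mice, and Emx2 also in treated App mice (0.933 CPM). With 3 mice in a group, the spread between mice limits every treatment comparison. Leaving out a library leaves 2 in its group, whose spread is then taken from all groups.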
